A study of Mus musculus with 12 samples.

Results

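Nkx2-5 is a homeodomain transcription factor of heart muscle. In the early heart it is made throughout the myocardium, where trabeculae, the muscular ridges that line the ventricle, form from proliferating cardiomyocytes and later contribute to the compact wall and to the Purkinje fibres of the conduction system. The transcriptome of adult left ventricles was compared here between mutant and control mice, across all genes on the array. In the mutant mice Nkx2-5 had been removed from trabecular muscle while trabeculae were forming (Nkx2-5ΔTrbE10, labelled Nkx2-5Δtrab and called TrbE10). The members were the 4 TrbE10 and 4 control arrays of the 12 arrays in the series, chosen by their labels, with 1 mouse aged 6 months per array.

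Per the methods, a floxed Nkx2-5 allele (Nkx2-5-ΔNeo) was bred with Cx40-creERT2, a tamoxifen-inducible Cre recombinase at the Gja5 (Cx40) locus. TrbE10 mice carried both, and their mothers received tamoxifen on E10.5 and E11.5. The methods do not spell out how many floxed alleles TrbE10 mice had. Control mice were homozygous for the floxed allele (Nkx2-5-ΔNeo fl/fl) and lacked the Cre allele. The methods describe them as littermates, and the labels as not injected, so that the exposure of their mothers to tamoxifen is not settled. Cx40 is made by trabecular and atrial muscle and by arterial endothelium, which limits how far the deletion can be called specific to 1 cell type. Cells outside the Cre domain keep Nkx2-5, so that each sample is a mixture of deleted and intact muscle. The tissue was the free wall of the left ventricle with the apex and without the septum. The 4 other arrays came from mice induced at E13.5 and E14.5 (TrbE14). They entered the normalization, the probe filter and the estimate of the spread, and are compared with TrbE10 hearts only at the end.

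Total RNA was labelled with Cy3 and hybridized to one-colour Agilent mouse arrays, whose values are fluorescence intensities given here as log2 signals after quantile normalization. Of 55681 probes, 24593 probes of 18021 genes rose well above background on 3 or more arrays of some group and were tested. Counted on each of the 8 arrays alone, between 22888 and 25257 probes were above background, and precision is set by how few arrays there were. The log2 signals of all tested probes had a Pearson r of 0.984 to 0.989 between control hearts, 0.979 to 0.988 between TrbE10 hearts and 0.972 to 0.984 between a control and a TrbE10 heart. The 4 TrbE10 arrays shared 1 slide and the 4 control arrays a different one, and slide and deletion cannot be told apart in any comparison below. By their Y-linked probes, 1 control heart and 2 TrbE10 hearts were male. Ventricular muscle in the samples was borne out by its markers, as the ventricular light chains Myl2 and Myl3 lay between 17.1 and 18.3 on the log2 scale in all 8 hearts. The atrial light chains Myl4 and Myl7 were also detected. Their signals, given below, varied widely between hearts of both groups. In each list of values below, replicates 1 to 4 follow each other. A p-value measures the spread between these mice, and the methods do not say whether they came from separate litters.

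The targeted gene was checked first. The log2 signal of Nkx2-5 was 11.95, 12.23, 11.93 and 11.89 in control hearts and 11.27, 11.67, 11.21 and 11.22 in TrbE10 hearts. Every TrbE10 heart lay below every control heart, and the difference was -0.66 (SE 0.14, adjusted p = 0.0459, limma). The call was kept without TrbE10 replicate 2 and lost without any other of the 8 arrays. The exact two-sided permutation p was 0.0286, the smallest that 4 against 4 allow. The probe lies on chromosome 17 of mm9 from 26975621 to 26975680, on the minus strand near the 3′ end of the transcript. The extent of the floxed part is not given in the sources used here, so the probe may measure RNA that remains after recombination. Gja5 itself, which encodes connexin 40, was 7.57, 7.09, 8.83 and 7.78 in control and 7.17, 7.43, 7.31 and 6.77 in TrbE10 hearts. Its groups overlapped, and the difference of -0.64 did not pass the test (SE 0.36, adjusted p = 0.41, exact permutation p = 0.143). These values are of its brightest probe. A dimmer probe, also not called, was above background on 3 control and 0 TrbE10 arrays. It read 4.70, 5.09, 5.29 and 5.38 in control and 4.75, 4.76, 4.95 and 3.60 in TrbE10 hearts.

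Many more genes differed than the targeted one, and increases outnumbered decreases. Of 18021 genes tested, 387 (2.15%) had at least 1 probe with an adjusted p under 0.05, 245 of them (1.36%) higher and 142 (0.788%) lower in TrbE10 hearts. Increases were also larger as they stand, with a median log2 change of 1.03 among genes called higher and of -0.72 among those called lower. Both medians include genes at background in 1 of the groups. By the log2 change of the brightest probe of each gene, 122 of the genes called higher and 25 of those called lower differed at least 2-fold, and 37 and 3 at least 4-fold. These counts take each log2 change as it stands. They include genes at background in every heart of a group, whose log2 changes rest partly on signals below measurement. For such genes the text below gives a lower bound of the fold instead. All 3 decreases of 4-fold were such genes (Tspan8, Gpr1 and Abca4), and their bounds, given below, are smaller. By the brightest probe, 28 called genes were above background in no control heart and 10 in no TrbE10 heart. Among the 17163 genes whose brightest probe was measured on 3 or 4 control arrays, 200 were called higher and 141 lower. That restriction drops increases from background and keeps decreases to background. Over all 18021 genes the median log2 change was -0.025. For 10.6% of genes the 4 TrbE10 hearts did not overlap the 4 control hearts, with 4.94% higher and 5.63% lower.

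**Figure D1:**
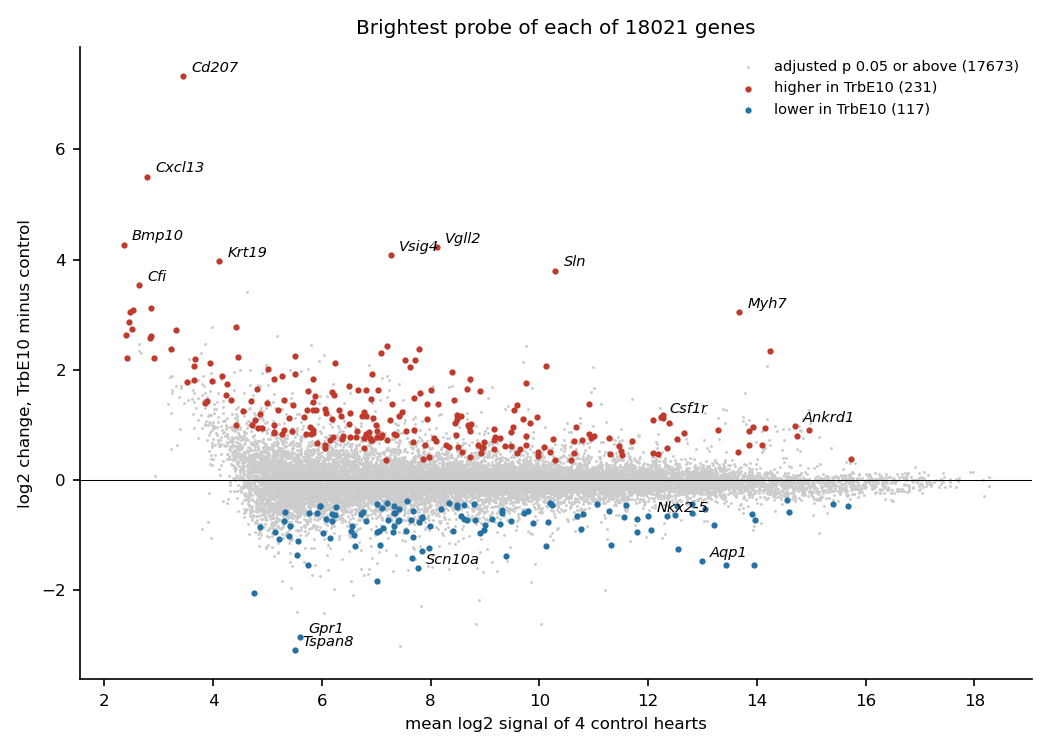
Log2 change of TrbE10 against control hearts (vertical axis) plotted against the mean log2 signal of 4 control hearts (horizontal axis), with 1 point for the brightest probe of each of 18021 genes. The 231 red and 117 blue points had an adjusted p under 0.05, and the largest increases, such as Cd207 and Cxcl13, started from control signals at the lower end of the axis, while Sln and Myh7 rose from high ones.

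The number of called genes rested on the animals included. With 1 array left out at a time it was lowest, at 149, when TrbE10 replicate 3 was missing, and highest, at 650, when TrbE10 replicate 2 was missing. It was 214, 189 and 171 when control replicate 1, 3 or 4 was missing and 207 and 208 when TrbE10 replicate 1 or 4 was. Of the 92 genes named below whose brightest probe was called, 38 kept the call whichever array was missing. The other 54 lost it without at least 1 array, of which 46 did so without control replicate 4 and 45 without TrbE10 replicate 3. These losses are given below for some of the genes only. Among those without a count below, Ahrr, Aif1, Csf2rb and Pdgfrb lost the call in 7 of the 8 fits and C1qa and Cybb in 6. TrbE10 replicate 2 was the mildest mutant heart, since the median called gene moved there by 0.788 of the group's mean change, against 1.04, 1.16 and 1.02 in the other 3. Under scaling to the 75th percentile 241 genes were called higher and 220 lower, so that the excess of increases was smaller than with quantile normalization.

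Promoters of 4 genes that rose are shown because they stand for the muscle genes (Myh7 and Bmp10) and the immune cell receptors (Cd207 and Vsig4) among the largest increases. Each line gives the 250 bases before a RefSeq transcription start in GRCm38.p6, written 5′ to 3′ along the gene. Capitals mark matches on either strand to TNAAGTG, a core sequence bound by Nkx2-5, or to GAGGAA, the core bound by the myeloid factor PU.1. The windows lie at chr14:54994627-54994876 (minus strand, the more upstream of 2 starts of Myh7), chr6:87428744-87428993 (plus strand, Bmp10), chr6:83677858-83678107 (minus strand, Cd207) and chrX:96293439-96293688 (minus strand, Vsig4).

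Myh7: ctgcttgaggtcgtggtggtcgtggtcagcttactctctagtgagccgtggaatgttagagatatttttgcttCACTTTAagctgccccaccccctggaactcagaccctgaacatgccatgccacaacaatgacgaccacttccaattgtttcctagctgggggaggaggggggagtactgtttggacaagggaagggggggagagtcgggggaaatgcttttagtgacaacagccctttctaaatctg
Bmp10: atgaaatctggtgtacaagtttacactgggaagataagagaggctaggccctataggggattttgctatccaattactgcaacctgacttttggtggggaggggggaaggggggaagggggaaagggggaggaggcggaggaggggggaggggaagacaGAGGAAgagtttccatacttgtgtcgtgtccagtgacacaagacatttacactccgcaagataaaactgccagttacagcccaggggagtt
Cd207: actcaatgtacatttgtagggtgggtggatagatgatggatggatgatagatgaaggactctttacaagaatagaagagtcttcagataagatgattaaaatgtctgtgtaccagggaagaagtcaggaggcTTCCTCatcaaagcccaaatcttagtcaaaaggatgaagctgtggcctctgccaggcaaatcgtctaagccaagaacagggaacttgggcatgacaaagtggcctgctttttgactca
Vsig4: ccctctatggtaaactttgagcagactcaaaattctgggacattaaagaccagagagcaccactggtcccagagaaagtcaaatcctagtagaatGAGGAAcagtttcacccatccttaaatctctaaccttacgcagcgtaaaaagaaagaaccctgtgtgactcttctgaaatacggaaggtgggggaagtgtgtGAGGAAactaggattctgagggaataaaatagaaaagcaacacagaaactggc

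The Myh7 window held 1 match to TNAAGTG, reading on the strand opposite to the gene, and the window of its other start held none. Vsig4 held 2 matches to GAGGAA and Cd207 and Bmp10 held 1 each. Such matches are common, with TNAAGTG in 7.65% and GAGGAA in 22.7% of 12009 windows of tested genes, and 3 matches of the one overlapped matches of the other. The table of promoters covered 147 of the 245 genes called higher and 77 of the 142 called lower, under 80% of each, so that no share is given for the called genes. A match describes these letters in these windows and shows no binding.

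Genes of fetal, atrial and stressed muscle were among the strongest increases. Adult mouse ventricle runs on alpha myosin heavy chain (Myh6), and its re-expression of the beta chain (Myh7) is a classical sign of a return toward the fetal programme. The log2 signal of Myh7 was 13.68, 13.30, 13.96 and 13.73 in control and 16.67, 15.88, 17.12 and 17.21 in TrbE10 hearts. All TrbE10 hearts lay above all controls, a rise of 3.05 on the log2 scale or 8.28-fold (SE 0.36, adjusted p = 0.00217). Myh6 stayed between 17.9 and 18.2 in all 8 hearts.

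Sln encodes sarcolipin, a small membrane protein of atrial muscle that inhibits the calcium pump SERCA. Its log2 signal was 8.57, 10.83, 12.48 and 9.31 in control and 14.16, 13.54, 14.42 and 14.27 in TrbE10 hearts. The mutant hearts lay close together and above all controls, which were widely spread, and the rise was 3.80 (SE 0.66, adjusted p = 0.0177). The call was lost without control replicate 4 or TrbE10 replicate 1, 3 or 4. Bmp10, a growth factor of the trabecular and atrial myocardium, was 2.36, 2.36, 2.35 and 2.37 in control hearts, where no array measured it above background, and 6.55, 5.33, 7.59 and 7.05 in TrbE10 hearts, in all 4 of which it was measured. Its TrbE10 level was at least 4.56-fold that of the controls (adjusted p = 0.000253). The bound sets the mean of the TrbE10 hearts against the lowest signal that counted as measured on each control array. With normexp background correction, which lifts dim signals, the log2 change of Bmp10 was 1.56, below this bound.

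Ankrd1, a stretch-responsive protein of the sarcomere and nucleus, was 14.44, 14.76, 14.65 and 14.94 in control and 15.77, 15.36, 15.81 and 15.78 in TrbE10 hearts. It rose by 0.99 on the log2 scale (SE 0.13, adjusted p = 0.00396) with no overlap. Dkk3, which encodes a secreted protein of the dickkopf family, rose by 1.62 (SE 0.35, adjusted p = 0.0459). Of 21 tested genes in the list of fetal and atrial muscle genes, these 5 were called higher and 1, Stard10, was called lower (-0.66, SE 0.14, adjusted p = 0.0482). The call of Stard10 was lost in all 8 fits with 1 array left out and that of Dkk3 in 7 of them. The median log2 change of the list was 0.59, against -0.025 over all genes. The counts of this and the following lists stand against 1.36% of all genes called higher and 0.788% called lower. Bmp10 was tested only through its TrbE10 signal, and without it 4 of 20 genes were called higher and 1 lower.

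The natriuretic peptides, textbook stress hormones of the heart, did not pass the test. Nppa was 12.93, 14.92, 15.04 and 13.87 in control and 16.85, 14.72, 16.96 and 16.52 in TrbE10 hearts. All but TrbE10 replicate 2 lay above the controls, and the difference of 2.07 had an SE of 0.54 (adjusted p = 0.086). Nppb was 13.68, 13.71, 12.14 and 12.94 in control and 14.21, 12.98, 13.65 and 13.71 in TrbE10 hearts, so that the groups overlapped in part (0.52, SE 0.40, adjusted p = 0.557).

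Other atrial genes, named after their values were seen, bear on how Sln is read. Myl7, the atrial regulatory light chain, was 8.68, 10.59, 12.14 and 9.63 in control and 11.18, 8.10, 10.34 and 10.94 in TrbE10 hearts, and its groups overlapped. Myl4, the atrial essential light chain, was 11.72, 13.21, 14.58 and 12.27 in control and 13.56, 11.11, 13.11 and 13.65 in TrbE10 hearts. Mybphl, a myosin-binding protein of the atrium, was 5.59, 7.24, 9.22 and 6.40 in control and 9.35, 8.56, 8.92 and 8.99 in TrbE10 hearts. Control replicate 3 was the highest and replicate 1 the lowest control for all of Sln, Myl7, Myl4 and Mybphl, and TrbE10 replicate 2 was the lowest mutant heart for each of them. The level of Myl7 in TrbE10 replicate 2 lay below every control, whereas its level of Sln lay above every control. The part that atrial tissue in the samples has in these values was not tested.

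**Figure D2:**
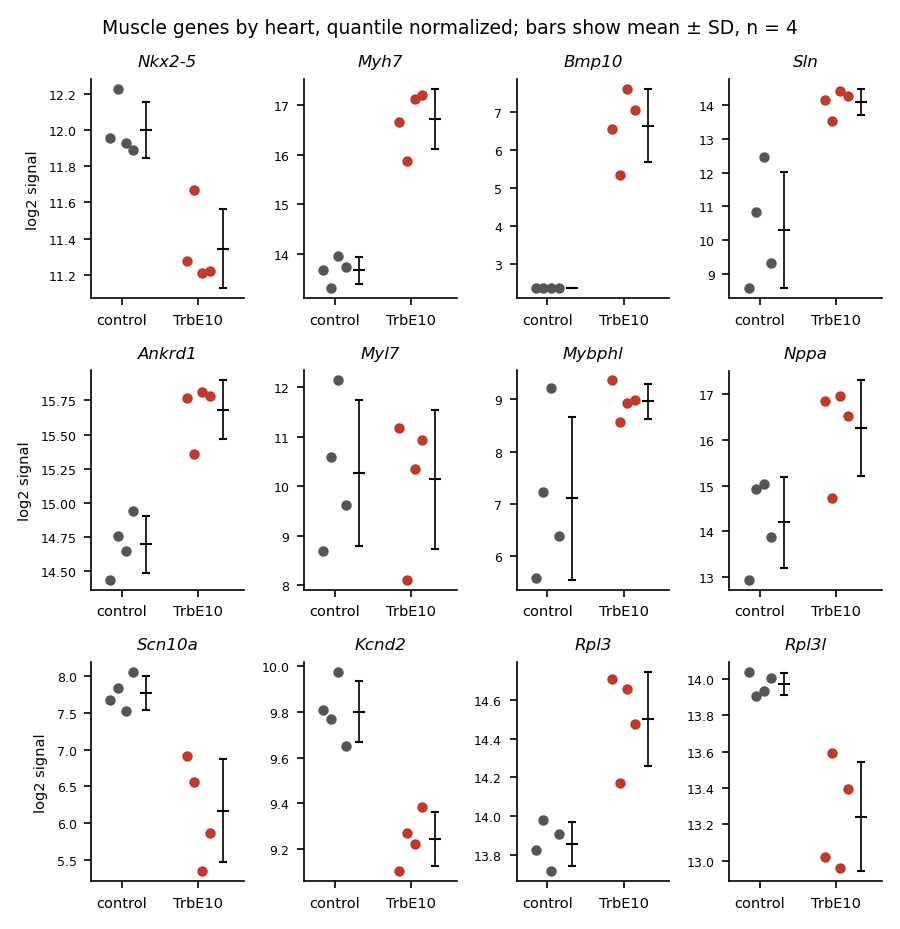
Log2 signal (vertical axes, separate scale in each panel) of 12 genes in 4 control (grey) and 4 TrbE10 hearts (red), with 1 point per heart and a bar for the mean ± SD. Nkx2-5, Scn10a, Kcnd2 and Rpl3l lie lower in all TrbE10 hearts and Myh7, Bmp10, Sln, Ankrd1 and Rpl3 higher, while Myl7, Mybphl and Nppa overlap between the groups.

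None of 26 ventricular contractile genes was called (0 higher, 0 lower), and their log2 changes ran from -0.42 to 0.31 with a median of -0.080. Over all genes 2.15% were called. At an unadjusted p under 0.05, 4022 of the 24593 probes differed over the whole array. Another list without a call was calcium handling, with 0 of 22 genes called and a median of -0.14. Its lowest member was Ryr2, the calcium release channel of the sarcoplasmic reticulum, whose 4 TrbE10 hearts lay below the 4 controls (-0.41, SE 0.11, adjusted p = 0.0918).

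The probes of 2 forms of ribosomal protein L3 were called in opposite directions. Rpl3l, which encodes the form of ribosomal protein L3 found in adult heart and skeletal muscle, was 14.04, 13.91, 13.93 and 14.00 in control and 13.02, 13.59, 12.96 and 13.40 in TrbE10 hearts, and fell by 0.73 (SE 0.13, adjusted p = 0.0233). Rpl3, the form made in other tissues, was 13.83, 13.98, 13.71 and 13.90 in control and 14.71, 14.17, 14.66 and 14.48 in TrbE10 hearts, and rose by 0.65 (SE 0.13, adjusted p = 0.0386). Neither overlapped between the groups. The call of Rpl3l was lost in 5 and that of Rpl3 in 7 of the 8 fits with 1 array left out. Eef1a1, the elongation factor that adult muscle exchanges for Eef1a2, also rose, by 0.85 (SE 0.13, adjusted p = 0.00933). All 3 were named after their values were seen. Rpl3 and Eef1a1 have many near-identical copies in the genome, whose RNA the probes may share.

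Genes of conduction and of potassium channels had their calls in the other direction. Scn10a, which encodes a neuronal sodium channel also known from the conduction system, was 7.68, 7.84, 7.52 and 8.05 in control and 6.91, 6.56, 5.35 and 5.86 in TrbE10 hearts. It was lower in every TrbE10 heart, by -1.60 on the log2 scale or 3.03-fold (SE 0.29, adjusted p = 0.0208). Pcp4, a calmodulin regulator used as a marker of Purkinje cells, was 5.67, 5.35, 6.02 and 5.97 in control and 3.97, 4.69, 4.59 and 3.59 in TrbE10 hearts. It was not well above background in any TrbE10 heart, and the control level was at least 2.21-fold higher (adjusted p = 0.0181). With normexp background correction the log2 change of Pcp4 was -0.48, below this bound. The call of Scn10a was lost without control replicate 2 or 4 or TrbE10 replicate 4, and that of Pcp4 without control replicate 3 or 4 or TrbE10 replicate 1.

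These were the 2 genes called lower among 13 tested conduction system genes, with 0 called higher and a median of -0.44. Other members of the list, Hcn4 and Cntn2 among them, were not measured well enough to be tested. Sema3a, a guidance factor of cardiac innervation, had the only large positive change of this list (1.75, SE 0.47, adjusted p = 0.0918). Of 20 potassium channel genes, 16 had a log2 change below 0, and 2 (10%) were called lower. Kcnd2, a subunit of the transient outward current, was 9.81, 9.77, 9.97 and 9.65 in control and 9.10, 9.27, 9.22 and 9.39 in TrbE10 hearts, and fell by 0.56 (SE 0.11, adjusted p = 0.0318). Abcc8, the SUR1 subunit of ATP-sensitive channels, fell by 0.60 (SE 0.13, adjusted p = 0.0444). The call of Abcc8 was lost in 7 and that of Kcnd2 in 6 of the 8 fits with 1 array left out. The median over the list was -0.30.

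Of 24 tested transcription factors of the heart, 3 (12.5%) were called, all of them higher, against 2.15% of all genes, and the median was -0.0030. Among the 21 measured on 3 or 4 control arrays, 2 (9.52%) were called higher and 0 lower, against 1.17% of all genes so measured called higher. Tbx18 was measured in 2 control hearts and is not among these 21. Tbx18, a T-box factor of epicardium and sinus node, was 5.50, 5.39, 4.42 and 4.63 in control and 6.52, 6.18, 6.39 and 6.47 in TrbE10 hearts (1.40, SE 0.27, adjusted p = 0.0292). Id2, an inhibitor of helix-loop-helix factors with a role in conduction cells, rose by 1.19 (SE 0.24, adjusted p = 0.0358). Its call was lost in 6 of the 8 fits with 1 array left out. Tbx20 was called by 2 dimmer probes, one with a log2 change of 1.23 and one at background in every control heart and at least 3.56-fold higher in TrbE10 hearts (both adjusted p = 0.0237), whereas its brightest probe differed by 0.50 (adjusted p = 0.121). Tbx20 was also the only called gene among 16 tested genes of noncompaction cardiomyopathy. Hopx, a homeodomain cofactor, was 14.16, 13.96, 14.03 and 14.13 in control and 13.64, 13.58, 12.67 and 13.26 in TrbE10 hearts, without overlap (-0.78, SE 0.19, adjusted p = 0.0681).

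Signals that build the trabecular wall in the embryo pass between endocardium and myocardium through Notch, neuregulin and BMP. In the Notch list, 1 of 22 tested genes was called higher and 1 lower (9.09% in all, against 2.15% of all genes). Hey1, a transcriptional target of Notch, was 9.57, 9.69, 9.24 and 9.40 in control and 10.33, 10.13, 10.43 and 10.55 in TrbE10 hearts, a rise of 0.88 (SE 0.12, adjusted p = 0.00398). Dtx1, a ubiquitin ligase that modulates the receptor, fell by 0.93 (SE 0.19, adjusted p = 0.0392). Its call was lost in 6 of the 8 fits with 1 array left out. The receptors and ligands were not called.

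Among 10 tested genes of neuregulin signalling, the ligands Nrg1 and Nrg4 moved in opposite directions. Nrg1, the endocardial ligand, was 5.50, 5.93, 6.10 and 5.84 in control and 7.89, 6.77, 7.37 and 7.06 in TrbE10 hearts, and rose by 1.43 (SE 0.24, adjusted p = 0.0147). Nrg4 fell by 0.92 (SE 0.20, adjusted p = 0.0451), a call lost in 7 of the 8 fits with 1 array left out. The receptors Erbb2 and Erbb4 had log2 changes of 0.21 (adjusted p = 0.438) and -0.23 (adjusted p = 0.441).

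Downstream of BMP, Smad6, an inhibitory Smad that BMP signalling itself induces, was 7.62, 8.16, 7.47 and 7.65 in control and 9.68, 9.45, 10.38 and 10.12 in TrbE10 hearts. The rise was 2.19 on the log2 scale or 4.55-fold (SE 0.20, adjusted p = 0.00043). Eng, the co-receptor endoglin, was the other of 2 genes called higher among 33 tested, with 0 lower (0.71, SE 0.15, adjusted p = 0.0412). Its call was lost in 7 of the 8 fits with 1 array left out. Id3, another target of BMP, had 4 TrbE10 hearts above the 4 controls and a change of 0.73 (SE 0.17, adjusted p = 0.0618). Of 22 Wnt pathway genes, 3 were called higher and 0 lower. These were the secreted inhibitors Sfrp2 (2.17, SE 0.38, adjusted p = 0.018) and Sfrp1 (0.89, SE 0.17, adjusted p = 0.028) and the receptor Fzd7 (0.77, SE 0.16, adjusted p = 0.0428).

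Many macrophage genes were higher in TrbE10 hearts. Of 38 tested genes in a list of general macrophage and monocyte markers, 14 were called higher and 0 lower, or 36.8%, where 1.36% of all genes were called higher. The median log2 change was 0.72, 36 of the 38 lay above 0, and for 22 the TrbE10 hearts lay wholly above the controls, against 4.94% of all genes. Some members, such as Msr1 and Fcgr1, were at background in the controls and were tested only through the TrbE10 hearts. Among the 32 members measured on 3 or 4 control arrays, 12 (37.5%) were called higher and 0 lower, with a median of 0.66, against 1.17% of all genes so measured. In whole tissue, more cells of a type and more RNA per cell cannot be told apart.

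Csf1r, the receptor that keeps macrophages alive, was 12.19, 12.15, 12.43 and 12.19 in control and 13.41, 13.26, 13.48 and 13.38 in TrbE10 hearts. The hearts of each group lay close together and the groups far apart, and the rise was 1.14 (SE 0.084, adjusted p = 0.000112). Trem2, a lipid-sensing receptor, was 7.64, 7.34, 8.06 and 8.22 in control and 9.30, 9.27, 9.73 and 9.27 in TrbE10 hearts, and rose by 1.58 (SE 0.18, adjusted p = 0.00162). Msr1, a scavenger receptor, was at background in every control heart, was measured in all TrbE10 hearts and was at least 2.83-fold higher there (adjusted p = 0.000381). With normexp background correction the log2 change of Msr1 was 0.54, below this bound.

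The signalling adaptors Tyrobp and Fcer1g rose by 0.71 (SE 0.13, adjusted p = 0.0194) and 0.77 (SE 0.14, adjusted p = 0.019). Vav1, an exchange factor of blood cells, rose by 0.88 (SE 0.097, adjusted p = 0.00128). Cd68 and Aif1, which are used to stain macrophages, rose by 0.60 (SE 0.11, adjusted p = 0.0239) and 0.96 (SE 0.21, adjusted p = 0.0477). Ncf1 and Cybb of the NADPH oxidase rose by 0.97 (SE 0.14, adjusted p = 0.00704) and 1.14 (SE 0.22, adjusted p = 0.0292). Itgam was called by its dimmer probe alone (0.60, adjusted p = 0.0392), and its brightest probe differed by -0.088 (adjusted p = 0.729).

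The number called in this list depended on which animals were included. It was 8 without control replicate 1, 7 without control replicate 2, 7 without control replicate 4, 8 without TrbE10 replicate 1 and 5 without TrbE10 replicate 3, and between 11 and 16 without any other array. The median of the list stayed between 0.48 and 0.74 over all alternatives.

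Genes of long-lived resident macrophages gave fewer calls. Of 22 tested, 4 were called higher and 0 lower, with a median of 0.28 and 5 genes below 0, and over the 20 measured in controls the median was 0.19. Vsig4, a complement receptor of tissue macrophages, stood apart from the rest. It was 7.09, 7.38, 7.37 and 7.25 in control and 11.62, 10.91, 11.65 and 11.25 in TrbE10 hearts, a rise of 4.09 on the log2 scale (SE 0.16, adjusted p = 4.19e-07). C1qa and C1qc, subunits of the first complement component, rose by 0.72 (SE 0.14, adjusted p = 0.0265) and 0.84 (SE 0.14, adjusted p = 0.0153). Pf4, a chemokine of platelets and resident macrophages, rose by 0.53 (SE 0.098, adjusted p = 0.0234). Lyve1 and Mrc1, which define the resident cardiac population, had log2 changes of -0.18 (SE 0.18, adjusted p = 0.661) and 0.19 (SE 0.10, adjusted p = 0.385).

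**Figure D3:**
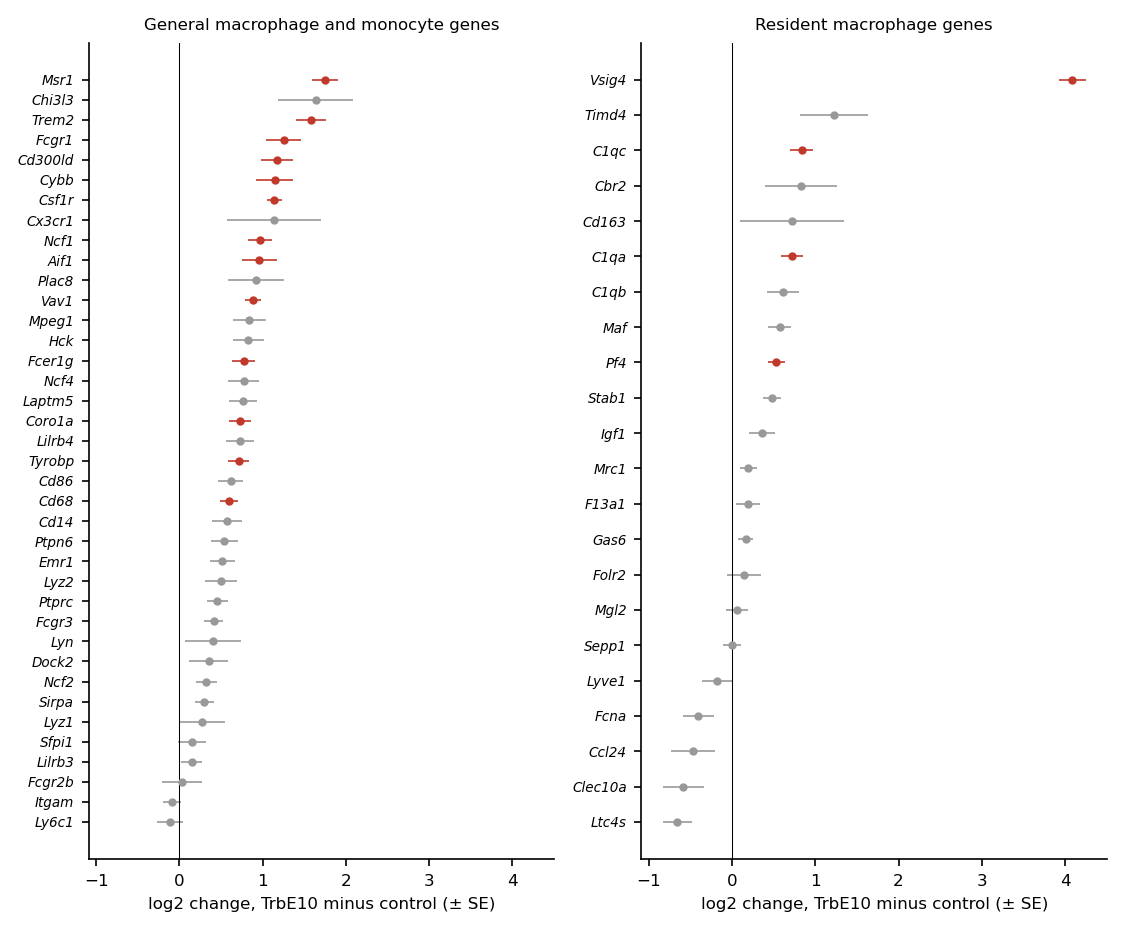
Log2 change of TrbE10 against control hearts with its SE (horizontal axis) for each tested gene of the general (left) and the resident macrophage list (right), by the brightest probe and with red for an adjusted p under 0.05. Nearly all general markers lie to the right of 0, while resident markers lie on both sides and Vsig4 lies far from the others at 4.09.

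The largest single increase on the array was Cd207, which encodes langerin, a lectin receptor known from Langerhans cells. Its log2 signal was 4.33, 3.47, 3.09 and 2.93 in control hearts, where it was not well above background, and 10.86, 10.13, 11.18 and 10.97 in TrbE10 hearts. The TrbE10 level was at least 75.2-fold higher (adjusted p = 4.19e-07). In contrast, none of 19 tested genes of MHC class II and dendritic cells was called (0 higher, 0 lower), and their median was 0.19. Cxcl13, a chemokine that attracts B lymphocytes, was likewise not measured in control hearts, with 3.69, 2.89, 2.28 and 2.30, and reached 8.05, 7.65, 8.95 and 8.52 in TrbE10 hearts. It was at least 14.4-fold higher (adjusted p = 2.43e-05). Normexp background correction gave a log2 change of 4.44 for Cd207 and 2.45 for Cxcl13, below both bounds. Of 13 tested lymphocyte genes 0 were called, with a median of 0.11, and of 7 neutrophil genes 0 were called.

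Chemokines and interleukins with their receptors had 5 genes called higher and 0 lower among 40 tested (12.5%), with a median of 0.30. Among the 34 measured in controls 4 were called higher, with a median of 0.20. Besides Cxcl13 and Pf4, these were Cx3cl1 (0.57, SE 0.10, adjusted p = 0.0213), a ligand of monocytes, Csf2rb (0.83, SE 0.17, adjusted p = 0.0402), a receptor chain for granulocyte-macrophage colony-stimulating factor, and Csf1, the ligand of Csf1r. Csf1 was called by 2 dimmer probes, with changes of 0.82 (adjusted p = 0.00152) and 0.84 (adjusted p = 0.000522), and its brightest probe differed by 0.45 (adjusted p = 0.437). Interferon-inducible genes were not called, with 0 of 40 and a median of -0.056.

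Of 18 tested complement genes, 5 (27.8%) were called higher and 0 lower, with a median of 0.44. Among the 16 measured in controls 4 were called higher, with a median of 0.34. Cfi, the protease that inactivates C3b, was 2.52, 2.55, 2.92 and 2.58 in control hearts, below the level of measurement, and 6.68, 5.70, 6.19 and 6.17 in TrbE10 hearts, at least 3.34-fold higher (adjusted p = 1.57e-05). With normexp background correction, which lifts dim signals, the log2 change of Cfi was 0.97, below this bound. Serping1, which inhibits C1, rose by 0.51 (SE 0.11, adjusted p = 0.0413). Itgb2, the shared chain of leukocyte integrins, rose by 0.36 (SE 0.079, adjusted p = 0.0458), and Vsig4 was also among them. The call of Itgb2 was lost without any 1 of the 8 arrays, and that of Serping1 in 7 of those 8 fits. Cfi, Serping1 and Vsig4 are known as brakes on complement. The central component C3 had a log2 change of 0.22 (SE 0.14, adjusted p = 0.45).

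Mast cell genes had 1 call among 7 tested. Cpa3, a carboxypeptidase of mast cells, was at background in every control heart, was measured in 3 TrbE10 hearts and was at least 2.05-fold higher there (adjusted p = 0.00505). In the authors' values its log2 change was 0.62, below this bound and past no threshold (adjusted p = 0.26). The mean level of the list, against the mean of the control hearts, was 0.83, 0.35, 1.34 and 1.80 in the TrbE10 hearts. This mean includes 2 members not measured on 3 control arrays, Cpa3 among them. Of the 5 members measured in controls none was called (0 higher, 0 lower), and their median log2 change was 0.67.

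Of 25 tested collagen genes, 1, Col27a1 of cartilage and vessels, was called higher (0.84, SE 0.17, adjusted p = 0.0386) and 0 lower. That call was lost in 7 of the 8 fits with 1 array left out. The median was 0.41, and 0.34 over the 22 collagens measured in controls. For 8 collagens the TrbE10 hearts lay wholly above the controls and for 1 wholly below, against 4.94% and 5.63% of all genes. Col1a2, a chain of the main fibrillar collagen, was 13.32, 13.65, 13.34 and 13.38 in control and 13.92, 13.73, 14.07 and 14.00 in TrbE10 hearts (0.51, SE 0.14, adjusted p = 0.0925). The heart with the smallest shift in the list's mean was TrbE10 replicate 2, at 0.11 against 0.39 to 0.54 in the other 3.

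Among 28 tested enzymes and inhibitors of matrix remodelling, 3 were called higher and 0 lower. Timp1, an inhibitor of metalloproteinases, was 7.41, 7.91, 7.40 and 8.44 in control and 10.59, 9.27, 10.45 and 10.40 in TrbE10 hearts, and rose by 2.39 (SE 0.43, adjusted p = 0.0208). Loxl3, which crosslinks collagen, rose by 1.01 (SE 0.13, adjusted p = 0.00339), and Adamts2, which trims procollagen, by 0.96 (SE 0.17, adjusted p = 0.0202). Timp4, the inhibitor most made by heart muscle, had every TrbE10 heart below every control and a change of -2.0 that did not pass the test (SE 0.52, adjusted p = 0.082).

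Of 17 tested fibroblast markers, 4 were called higher and 2 lower (35.3% in all, against 2.15% of all genes). Wisp2, a matricellular protein, was 6.81, 7.35, 6.84 and 7.37 in control and 9.60, 9.05, 9.79 and 9.17 in TrbE10 hearts, and rose by 2.31 (SE 0.21, adjusted p = 0.000381). Meox1, a homeodomain factor of activated fibroblasts, rose by 1.11 (SE 0.18, adjusted p = 0.0144), and the proteoglycan Dcn by 0.39 (SE 0.080, adjusted p = 0.0376). Sfrp1, described above, was the other. With 1 array left out, the calls of Dcn and Sfrp1 were each lost in 7 of 8 fits. Fap, a surface protease of activated fibroblasts, was 8.87, 8.87, 9.08 and 9.15 in control and 7.93, 8.33, 8.19 and 8.29 in TrbE10 hearts, and fell by 0.81 (SE 0.12, adjusted p = 0.00659). Scara5, a ferritin receptor, fell by 0.90 (SE 0.17, adjusted p = 0.0245). The general fibroblast marker Pdgfra differed by 0.20 (SE 0.13, adjusted p = 0.477).

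Of 38 tested endothelial genes, 4 were called higher and 0 lower, with a median of 0.15. Vwf, the clotting factor stored in endothelium, was 11.80, 12.53, 12.17 and 11.82 in control and 13.41, 12.76, 13.45 and 13.06 in TrbE10 hearts, and rose by 1.09 (SE 0.20, adjusted p = 0.0215). Npr3, the clearance receptor for natriuretic peptides and a marker of endocardium, rose by 1.24 (SE 0.23, adjusted p = 0.0247), and Cytl1, a secreted cytokine-like protein, by 2.07 (SE 0.25, adjusted p = 0.0025). Eng was the fourth. The pan-endothelial genes Pecam1 and Cdh5 were not called. Aqp1, a water channel of capillary endothelium, was one of the larger decreases, with 12.91, 13.25, 13.09 and 12.71 in control and 11.42, 11.48, 11.48 and 11.71 in TrbE10 hearts (-1.47, SE 0.20, adjusted p = 0.00472). Stab2, a scavenger receptor of sinusoidal endothelium, fell by 1.19 (SE 0.20, adjusted p = 0.0139).

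**Figure D4:**
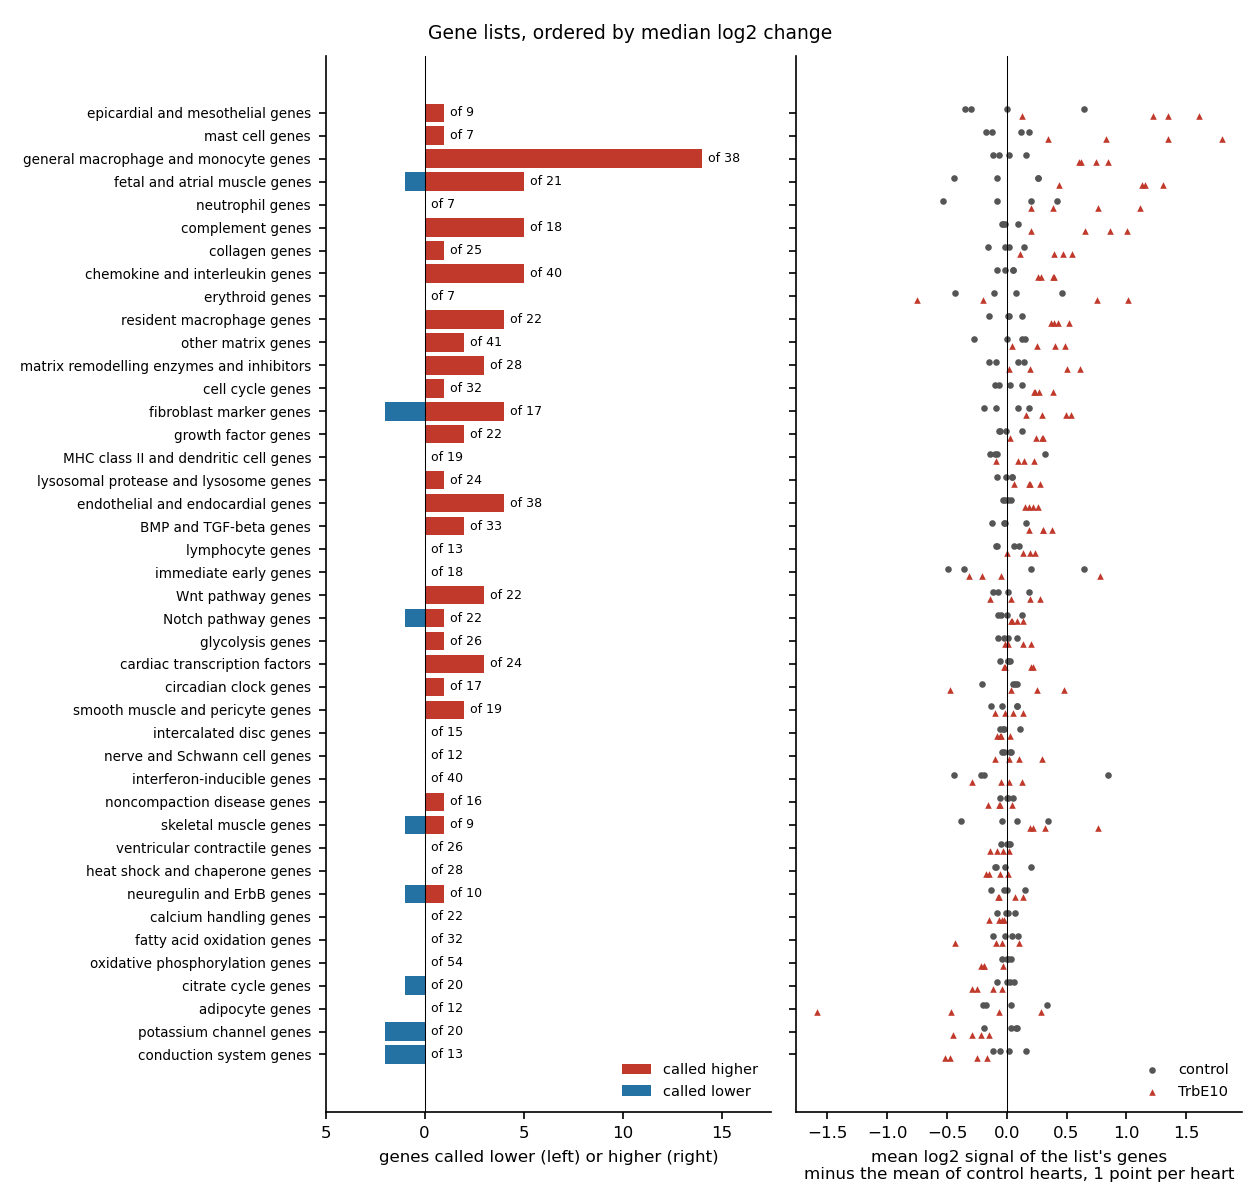
Left, number of genes called higher (red) or lower (blue) in TrbE10 hearts in each of 42 lists, with the number tested beside each bar. Right, mean log2 signal of each list minus the mean of the control hearts, with 1 grey point per control and 1 red triangle per TrbE10 heart, where the general macrophage genes lie at 0.60 to 0.85 in the TrbE10 hearts and the oxidative phosphorylation genes at -0.21 to -0.030.

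The 15 largest increases among genes whose hearts did not overlap also held genes outside these lists. Vgll2, a cofactor of TEAD transcription factors known from skeletal muscle, was 7.94, 8.45, 8.24 and 7.83 in control and 11.85, 12.09, 12.85 and 12.55 in TrbE10 hearts, and rose by 4.22 or 18.7-fold (SE 0.22, adjusted p = 5.26e-06). Skeletal muscle genes as a group did not follow it. Of 9 tested, Vgll2 was the only one called higher and Tnni2, the fast skeletal troponin I, was called lower, with 9.16, 9.78, 9.37 and 9.25 in control and 7.58, 8.37, 8.34 and 7.76 in TrbE10 hearts (-1.38, SE 0.24, adjusted p = 0.0193). The genes Myod1 and Myog, which define skeletal muscle, were not measured.

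Krt19, a keratin of mesothelium and epithelium, was 5.39, 3.38, 3.72 and 3.95 in control and 8.52, 7.60, 8.84 and 7.35 in TrbE10 hearts, and was called higher (3.97, SE 0.43, adjusted p = 0.00122). It was well above background in 1 control heart, and the log2 change was 1.97 with normexp background correction. It was the only called gene among 9 tested genes of the epicardium and mesothelium, whose median was 0.96, and none of the 6 measured in controls was called (0 higher, 0 lower). Wt1, the transcription factor that defines epicardium, differed by 1.22 (SE 0.31, adjusted p = 0.078) without overlap.

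Several of the other genes were at background in every control heart and measured in 3 or 4 TrbE10 hearts. Fam38b, the older name of the mechanosensitive channel Piezo2, had a TrbE10 level at least 1.84-fold that of the controls (adjusted p = 0.000435) and Eya4, a transcriptional coactivator, at least 1.74-fold (adjusted p = 0.000243). Klra2, a receptor of the Ly49 family, was at least 2.12-fold higher (adjusted p = 0.00933), Mctp1, a calcium-binding membrane protein, at least 2.26-fold (adjusted p = 0.0023) and Enpp6, a choline phosphodiesterase, at least 1.5-fold (adjusted p = 0.00152). In the authors' values all 5 lost the call, with log2 changes of 0.41 for Fam38b, 0.15 for Eya4, 0.44 for Klra2, 0.63 for Mctp1 and 0.070 for Enpp6, each below its bound. Rab33a, a small GTPase measured in 2 control hearts, rose by 2.77 (SE 0.36, adjusted p = 0.00362).

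Among the largest decreases, 3 genes were at background in every TrbE10 heart. Tspan8, a tetraspanin, was 5.53, 5.28, 6.34 and 4.85 in control and 2.22, 2.22, 3.01 and 2.22 in TrbE10 hearts, below the level of measurement in all 4 of the latter and at least 1.89-fold higher in control hearts (adjusted p = 0.0428). Gpr1, a receptor for chemerin, was 4.94, 5.99, 5.54 and 5.90 in control and 2.42, 4.10, 2.25 and 2.24 in TrbE10 hearts, at least 2.02-fold higher in control hearts (adjusted p = 0.0155). Abca4, a retinoid transporter, was at least 1.13-fold higher in control hearts (adjusted p = 0.0391). The call of Tspan8 was lost without any 1 of the 8 arrays, that of Abca4 in 5 and that of Gpr1 in 3 of those fits. In the authors' values none of the 3 was called, with log2 changes of -0.49 for Tspan8, -0.56 for Gpr1 and -0.086 for Abca4, each below its bound. Hal, the histidine ammonia-lyase, fell by 1.83 (SE 0.31, adjusted p = 0.0155).

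The remaining decreases among the 15 largest ran from -1.41 to -1.19. They were Lrrn4cl (-1.41, adjusted p = 0.0292), the semaphorin Sema5b (-1.36, adjusted p = 0.0409), the aryl hydrocarbon receptor repressor Ahrr (-1.28, adjusted p = 0.0282), Ano10 of the anoctamin family (-1.24, adjusted p = 0.033), Lypd2 (-1.23, adjusted p = 0.0195) and the Rab GTPase-activating protein Tbc1d10c (-1.19, adjusted p = 0.0114). The probe of Ano10 was bright, with 12.69, 12.51, 12.46 and 12.57 in control and 10.58, 11.93, 11.14 and 11.62 in TrbE10 hearts.

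Of 54 oxidative phosphorylation genes, 52 had a log2 change below 0 and the median was -0.17, but 0 were called and 11 lay wholly below the controls, against 5.63% of all genes. The mean of the list, against that of the control hearts, was -0.21, -0.030, -0.19 and -0.19, so that TrbE10 replicate 2 lay within the range of the controls. Of 20 citrate cycle genes, 19 had a change below 0. Fh1, the fumarate hydratase, was the 1 called, with 14.47, 14.67, 14.53 and 14.56 in control and 14.17, 14.27, 14.10 and 14.26 in TrbE10 hearts (-0.36, SE 0.073, adjusted p = 0.0346). Its call was lost in 7 of the 8 fits with 1 array left out. None of 32 fatty acid oxidation genes was called (0 higher, 0 lower), with a median of -0.17. Of 26 genes of glucose uptake and glycolysis, 1 was called, the glucagon receptor Gcgr, at 5.23, 5.49, 5.02 and 4.31 in control and 7.29, 6.61, 7.26 and 6.93 in TrbE10 hearts (2.01, SE 0.26, adjusted p = 0.00351).

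The other lists held few or no calls. Mcm3, a subunit of the replication helicase, was the 1 of 32 cell cycle genes called (0.77, SE 0.14, adjusted p = 0.0208), with a median of 0.25 for the list. Over the 27 cell cycle genes measured in controls the median was 0.12. Rorb, a nuclear receptor of the ROR family, was the 1 of 17 clock genes called, at 5.88, 6.30, 5.70 and 5.51 in control and 7.70, 7.71, 7.59 and 7.69 in TrbE10 hearts (1.83, SE 0.23, adjusted p = 0.00312). Of 22 growth factor genes, 2 were called higher, the binding protein Igfbp3 (1.64, SE 0.26, adjusted p = 0.0108) and the receptor Pdgfrb (0.37, SE 0.080, adjusted p = 0.0444). Of 41 other matrix genes, 2 were called higher, Dcn and Omd, a small proteoglycan that was at background in every control heart and at least 2.53-fold higher in TrbE10 hearts (adjusted p = 0.0138), though not called in the authors' values. Of 24 lysosomal genes, Ctss, the cathepsin of antigen-presenting cells, was called (1.11, SE 0.16, adjusted p = 0.00638). Of 19 smooth muscle and pericyte genes, 2 were called higher, Pdgfrb and, by its dimmer probe alone, Mcam (0.61, adjusted p = 0.0351). Lists of intercalated disc (15 tested), adipocyte (12), erythroid (7), nerve and Schwann cell (12), heat shock (28) and immediate early genes (18) held 0 called genes, with medians between -0.24 and 0.29.

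Genes close to the Cre allele were set apart, because TrbE10 mice carry Cx40-creERT2 at Gja5 on chromosome 3 and the controls do not. Within 5 Mb of the Gja5 probe, 7 of 152 tested genes were called (4.61%), and from 5 to 20 Mb 8 of 284 (2.82%). The count within 5 Mb was 3 or 4 without control replicate 3 or 4 or TrbE10 replicate 1 or 3 and 11 without TrbE10 replicate 2. On the rest of chromosome 3, 12 of 445 were called (2.70%), and on other chromosomes 360 of 17139 (2.10%). Those within 5 Mb included Ctss of the lysosomal list at 1.497 Mb and Fcgr1, an Fc receptor of the general macrophage list, at 0.771 Mb. The matrix protein gene Ecm1 at 1.32 Mb rose by 1.03 (SE 0.11, adjusted p = 0.000933). Phgdh, the first enzyme of serine synthesis, at 1.26 Mb, fell by 0.52 (SE 0.087, adjusted p = 0.0151), and Lelp1 at 4.92 Mb fell by 0.75 (SE 0.14, adjusted p = 0.0245). The other 2 were named only by a probe or a transcribed interval. Called genes at 5 to 20 Mb included Sfrp2 of the Wnt list at 13.3 Mb and Csf1 of the chemokine list at 10.7 Mb. For genes near Gja5 the alleles linked to the Cre insertion and the deletion of Nkx2-5 cannot be told apart. The Cre allele itself was carried by all TrbE10 mice and no control, so that for any gene it cannot be told apart from the deletion.

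Set against TrbE14 hearts directly, 0 genes were called by limma in TrbE10 hearts, although 1417 probes had an unadjusted p under 0.05, and the lowest adjusted p was 0.141. TrbE10 and TrbE14 arrays lay on different slides, and a difference that misses the threshold does not show that the early and the later deletion act alike.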

How the data were processed

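Total RNA of left ventricle from 12 mice aged 6 months (4 control, 4 TrbE10, 4 TrbE14) was hybridized in one colour to Agilent mouse 8x60K arrays, whose probe coordinates are on mm9. Per the labels and the submitters' processing notes, the authors scanned the arrays with Agilent Feature Extraction 10.5. The deposited intensity used here is its processed signal, corrected for background. The authors also deposited a table of quantile-normalized log2 values, which served as an alternative.

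Control spots (3671 of 62976) and spots marked as outliers were left out, the log2 intensities were quantile normalized over the 12 arrays and spots of 1 probe were averaged. Probes had to be well above background on 3 of the 4 arrays of a group. One mean per group was fitted with limma 3.58.1 in R 4.3.3 and eBayes, with Benjamini-Hochberg adjustment over 24593 probes, and every adjusted p in the text is from this fit unless another is named. A gene was called when at least 1 probe had an adjusted p under 0.05, and its value is that of its brightest probe. Where no array of a group measured a probe, a lower bound of the fold is given. It holds for this processing only, and several of these changes were below it with normexp background correction or in the authors' table. On simulated data with 200 changed probes the fit recovered 68% at a log2 change of 1 and 95% at 2.

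Members and the 42 gene lists were chosen with earlier results of these data known. Named were Nkx2-5 and Gja5, the 15 largest called changes in each direction among symbols without overlap, up to 4 called members per list and direction, the first gene of each list and called genes within 5 Mb of Gja5. Genes outside this rule were chosen after their values were seen, and not all genes the rule selects are described. One such item is not reported here. Promoters are RefSeq windows in GRCm38.p6, for 9387 of 18021 tested genes. Alternatives were a filter on 9 of 12 arrays or none, normexp background correction, scaling to the 75th percentile, the authors' table, a fit of 8 arrays, a replicate block, sex as a covariate, SAM, and leaving out each array. Counting the members of lists measured on 3 or 4 control arrays was added after seeing the data.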

Additional observations from a re-analysis of the deposited data

Results flagged for a closer look

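In 17 of 236 groups of 4 hearts, 1 heart lay far from the other 3 relative to the range of the group, where chance alone gives about 1 in 20. TrbE10 replicate 2 was the distant heart 6 times, and each time it lay nearest to the controls. Its log2 signal was 11.67 for Nkx2-5 against 11.21 to 11.27 in the other mutant hearts, 15.36 for Ankrd1 against 15.77 to 15.81, and 6.15 for Nrg4 against 5.40 to 5.47. It was 7.35 for Sfrp1 against 8.05 to 8.16, 9.27 for Timp1 against 10.40 to 10.59, and 4.10 for Gpr1 against 2.24 to 2.42.

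Other TrbE10 hearts stood apart for Abcc8 (replicate 1, 12.48), Trem2 (replicate 3, 9.73), Tspan8 (replicate 3, 3.01) and Rorb (replicate 3, 7.59). Control hearts stood apart for Ryr2 (replicate 1, 13.65), Vav1 (replicate 1, 7.33), Eya4 (replicate 1, 2.46), Enpp6 (replicate 2, 2.63), Csf1r (replicate 3, 12.43), Cfi (replicate 3, 2.92) and Npr3 (replicate 3, 6.37). The values of Tspan8, Gpr1, Eya4, Enpp6 and Cfi in these groups were at background.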

How the results depend on the processing

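Of 112 named changes, none changed sign under any alternative. Of the 92 past the threshold, 11 stayed past it under every alternative that tested them, namely Bmp10, Cd207, Cfi, Csf1r, Cxcl13, Krt19, Msr1, Myh7, Rorb, Vgll2 and Vsig4. The cause of the other changes in calls was not tested.

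The count of called genes, 387 (245 higher, 142 lower), became 183 (137 and 46) with no filter, where more probes were tested, and 246 (163 and 83) with the 8 arrays alone. Genes called lower numbered 220 under scaling to the 75th percentile and 216 with sex as a covariate, and SAM called 370 higher. Calls within 5 Mb of Gja5 fell from 7 to 4 without the filter and to 4 in the fit of 8 arrays. With 1 array left out, the range was 149 to 650 for all calls, 115 to 381 for higher, 34 to 269 for lower and 3 to 11 near Gja5.

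Higher calls made up 63.3% of the total, 52.3% under scaling to the 75th percentile and 57.5% in the authors' table. No scaling moved the median of all genes by over 0.1.

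Same-numbered control and TrbE10 hearts had correlations of deviations of -0.188, -0.179, 0.0790 and -0.124. Differently numbered hearts ran from -0.213 to 0.264, a range that holds all of these values. Whether the numbers pair the mice therefore cannot be told from them. With the replicate number as a block, 29 genes were called (26 higher, 3 lower), 0 of them near Gja5, and 2 in the general macrophage list. In that list the other alternatives without an array left out gave 9 to 19. Signals near background are limited most, and the bounds given for them hold only for the main processing.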
